A study of Mus musculus with 53 samples.

Results

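The mitochondrial uncoupling proteins expressed in brain, Ucp2, Slc25a14 (UCP5) and Slc25a27 (UCP4), were followed in laser-captured paraventricular nucleus (PVN) and arcuate nucleus (ARC), the hypothalamic nuclei that sense and relay energy status. They were chosen by symbol, with earlier results of these data known, and are 3 of the 53379 genes in the count tables. The study had already named Ucp2 as decreased in the PVN of mice lacking neuronatin. Its rank and calls there, from the same data, are therefore not independent of that choice. Gene-level read counts were available for 53 libraries, of which 49 were used, each from C57BL/6 mice given as adults. The study compared wild-type mice (Nnat+/+) with littermates carrying a paternal null allele of neuronatin (Nnat+/-p, written here as het), an imprinted gene read from the paternal copy, and the mutant allele carries a lacZ cassette in place of exons 2 and 3 in every cell of the body. The protocol gives an age of 13 to 14 weeks and male mice, although the female PVN libraries are labelled female.

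On chow, female PVN comprised 4 wild-type libraries (24.1 to 24.6 g), 3 non-obese het (20.4 to 23.9 g) and 3 obese het (31.5 to 33.35 g). Male PVN on chow comprised 3 wild-type (31.4 to 33.5 g), 3 non-obese het (27.4 to 34.3 g) and 4 obese het libraries (38.8 to 46.5 g), and male ARC on chow comprised 2, 4 and 4 libraries of the same classes and the same weight ranges. On high-fat diet (HFD), male PVN held 6 wild-type (37.4 to 42.9 g) and 3 het libraries (38.2 to 43.9 g), and male ARC held 6 wild-type (37.4 to 43.9 g) and 4 het libraries (38.2 to 43.1 g). The obese and non-obese classes were assigned from the labelled body weight with the limits given in the study's methods. Each of the 3 tables (female PVN, male PVN, male ARC) came from its own sequencing pool. Nucleus and pool, or sex and pool, therefore cannot be told apart.

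Uncoupling proteins belong to the mitochondrial carrier family and sit in the inner membrane, where they can lower the proton gradient and with it the yield of reactive oxygen species. Ucp1 is the thermogenic carrier of brown fat and Ucp3 is the muscle form. Ucp2 is found in many cells, including microglia and hypothalamic neurons, and is known for its part in glucose sensing and in the response of ARC neurons to fasting. Slc25a14 and Slc25a27 are the forms typical of neurons.

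In GENCODE annotation of GRCm38, Ucp2 (ENSMUSG00000033685) lies on chromosome 7 at 100493337-100502020 on the plus strand, with 11 transcripts whose merged exons span 6989 bases. Its 3′ end shares 305 exonic bases (100501716-100502020) with Dnajb13 on the opposite strand, and the strand setting of the counting was not given in the sources used here. Dnajb13 itself stayed at or below 5.63 CPM in every library (CPM, reads of a gene relative to all reads counted in the library, scaled by TMM factors), against at least 22.1 CPM for Ucp2. Slc25a14 (ENSMUSG00000031105) lies on chromosome X at 48623413-48662294, plus strand, and hosts a microRNA gene in an intron. Slc25a27 (ENSMUSG00000023912) lies on chromosome 17 at 43641891-43667214, minus strand, with Cyp39a1 starting 210 bases away on the other strand and no shared base.

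The start regions of Ucp2 and Slc25a14, as RefSeq gives them on GRCm38.p6 (250 bases before to 50 after the start, plus strand), are printed to show the sequence from which these transcripts are read. The first is chr7:100493108-100493407 and the second, 1 of 3 windows listed for Slc25a14, is chrX:48623198-48623497. Capitals mark the GC box (GGGCGG on either strand).
Ucp2: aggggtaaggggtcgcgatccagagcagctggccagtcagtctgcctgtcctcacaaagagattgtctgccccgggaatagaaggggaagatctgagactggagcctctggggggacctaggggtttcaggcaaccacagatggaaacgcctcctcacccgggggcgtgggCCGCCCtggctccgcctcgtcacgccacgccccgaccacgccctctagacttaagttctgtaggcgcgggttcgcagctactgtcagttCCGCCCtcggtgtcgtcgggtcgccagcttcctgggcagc
Slc25a14: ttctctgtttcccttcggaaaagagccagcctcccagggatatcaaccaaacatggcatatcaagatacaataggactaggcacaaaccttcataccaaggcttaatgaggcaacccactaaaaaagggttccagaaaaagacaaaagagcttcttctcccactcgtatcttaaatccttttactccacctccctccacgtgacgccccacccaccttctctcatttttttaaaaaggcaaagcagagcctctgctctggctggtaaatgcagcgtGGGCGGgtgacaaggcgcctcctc
The Ucp2 window was 64.3% G and C and held 2 GC boxes, and the Slc25a14 window was 48.3% G and C and held 1. A GC box was present in 35.7% of all 32851 windows of this length, so its presence is common. The E-box (CACGTG) was found in the printed Slc25a14 window and not in the Ucp2 window, against 7.2% of all windows. Neither held TATAAA (13.6% of all windows). The second Slc25a14 window, 54.3% G and C, held 1 GC box and 1 E-box. The third, 55.3% G and C, held 2 GC boxes and 0 E-boxes, so the contrast with Ucp2 depends on the window. These matches are descriptions of letters, and no binding was measured.

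Depth ranged from 6219365 to 30228973 counts per library in female PVN, from 2268021 to 8560199 in male PVN and from 1479953 to 18058097 in male ARC. Members were counted with 76 to 3075 reads for Ucp2, 39 to 840 for Slc25a14 and 9 to 1012 for Slc25a27 per library, so counting error was smallest for Ucp2. Nnat, the targeted gene, ran from 267 to 566 CPM in wild-type and from 0.320 to 14.4 CPM in het libraries, which matched every genotype label. Nucleus markers were low or absent in some libraries. The wild-type chow PVN library 15 held 0.504 CPM of Sim1, the defining transcription factor of PVN neurons, and 101 CPM of Pomc, an ARC neuropeptide, and the wild-type HFD PVN library 24 held 15.3 CPM of Sim1, against 35.7 CPM or more in the other PVN libraries. In the non-obese het ARC libraries 39 and 43 the ARC neuropeptide Agrp was at 0, but few reads were counted elsewhere too (2 in ARC library 38), and library 39 held 9.79 CPM of Npy and 23.5 CPM of Pomc, other ARC neuropeptides. Library 43 held 4.16 CPM of Npy and 2.40 CPM of Pomc, the lowest of the ARC libraries for both. Main differences and correlations of the members are also given without libraries 15 and 24 or 39 and 43.

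All 3 uncoupling proteins were detected in every library, whereas Ucp1 was close to absent and Ucp3 was low by median. Per kilobase of merged exon, Ucp2 reached 8.05 ± 2.95 CPM in female PVN (SD, n = 10), 6.38 ± 2.25 in male PVN (n = 19) and 8.54 ± 2.55 in male ARC (n = 20). Slc25a14 reached 7.60 ± 3.70, 7.89 ± 1.84 and 8.96 ± 2.14 CPM per kilobase in the same tables. Slc25a27 was the lowest of the 3, with 5.57 ± 1.27, 4.43 ± 1.31 and 3.37 ± 1.14 CPM per kilobase. The order of Ucp2 and Slc25a14 was within their spread and turned with the length used, since per kilobase of the principal transcript alone male PVN held 11.2 ± 3.94 CPM of Ucp2 and 10.6 ± 2.48 of Slc25a14. Slc25a27 stayed lowest by mean on both lengths in the 3 tables. Ucp1 had a median of 0 CPM in all 3 tables and was at 0 in all 10 female libraries, which says only that it was not detected at this depth. Ucp3 had medians of 0.555, 2.61 and 2.03 CPM in female PVN, male PVN and male ARC, and Slc25a30, a related kidney carrier, had 4.49, 7.27 and 8.72 CPM.

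**Figure D1:**
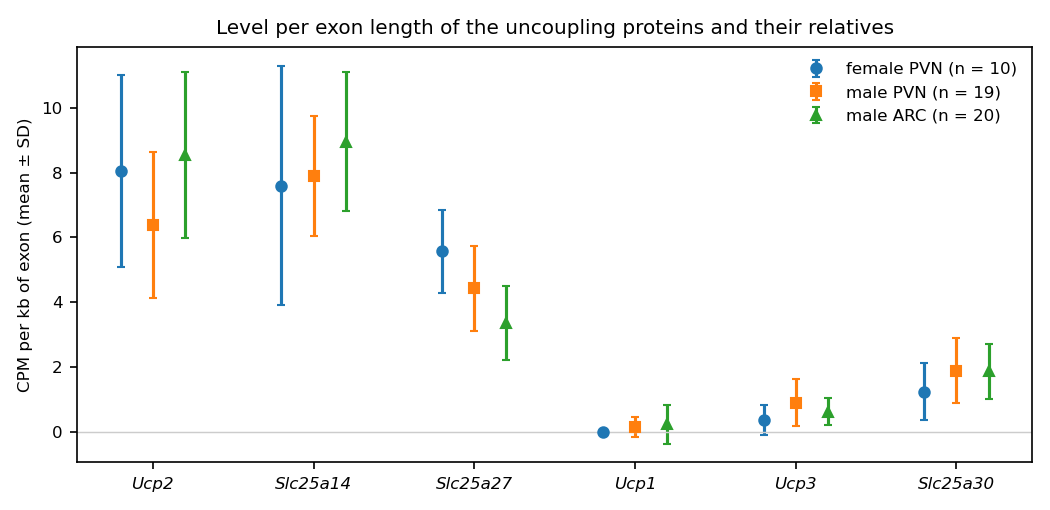
Mean CPM per kilobase of merged exon (vertical axis, bars are SD over libraries) for the 3 uncoupling proteins and 3 relatives in female PVN, male PVN and male ARC. Ucp2, Slc25a14 and Slc25a27 sit between 3.37 and 8.96, and Ucp1, Ucp3 and Slc25a30 lie below them.

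In male PVN on chow, fitted Ucp2 was less than the wild-type level in both het classes, at p-values that did not pass adjustment by edgeR. Wild-type libraries held 72.9, 55.3 and 85.0 CPM (replicates 13, 14 and 15). Non-obese hets held 57.8, 38.8 and 28.9 CPM, and obese hets held 34.9, 29.9, 43.2 and 22.1 CPM. Every obese het library lay below every wild-type library, while 1 non-obese het library overlapped the wild-type range. How many of all genes separated in this way was not counted, here or in the comparisons below. In the edgeR quasi-likelihood fit the obese het difference was -1.15 on the log2 scale (SE 0.30, 95% interval -1.76 to -0.53), a level 0.452 times that of wild type, with an unadjusted p of 7.99e-04 that ranked Ucp2 18th of 15618 genes. After Benjamini-Hochberg adjustment it did not pass the threshold of 0.25 that the study used (edgeR adjusted p = 0.685). DESeq2 on the same libraries gave -1.13 with an adjusted p of 0.245, inside that threshold. Among the 3 members 0 were called by edgeR, 1 had an unadjusted p under 0.05 and 1 was called by DESeq2, against 0.0256% of all genes called by edgeR, 3.52% at an unadjusted p under 0.05 and 0.264% called by DESeq2.

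The non-obese het difference in Ucp2 was smaller, at -0.76 (SE 0.32, 95% interval -1.43 to -0.10, edgeR unadjusted p = 0.0267, adjusted p = 1.00), with 0 of 3 members called by either tool, 0.0128% of genes called by edgeR and 0.00582% by DESeq2, and 2.56% of genes at an unadjusted p under 0.05. Obese and non-obese hets differed by -0.38 in Ucp2 (SE 0.30, 95% interval -1.01 to 0.24), which was within the spread between libraries, with 0 of 3 members and 0% of genes called by either tool, and 0 members and 1.66% of genes at an unadjusted p under 0.05. With both weight classes pooled, an exact two-sided permutation test of 7 het against 3 wild-type libraries gave a difference of -0.99 in mean log2 CPM with p = 0.0167, where the smallest p this design allows is 0.00833, and an adjusted p of 0.25 over 15 tests of the 3 members in 5 settings. Without library 15, which lacked PVN markers and held the highest Ucp2, the obese het difference was -0.97 (edgeR unadjusted p = 0.00661, adjusted p = 1.00), the non-obese het difference was -0.59 and the pooled exact permutation p was 0.0556 (adjusted p = 0.417). Of the marker lists of other cells, 0 genes were called in the obese het comparison, where edgeR called 0.0256% of all genes. The medians of the ARC and PVN neuron markers were -2.25 (4 tested) and 0.77 (5 tested) against -0.01 over all genes. Library 15, with 101 CPM of Pomc and 0.504 CPM of Sim1, was among the wild types, and these medians are not given without it. Neuron markers had a median of -0.22, with 2 of 5 at an unadjusted edgeR p under 0.05. The part of all these markers in the Ucp2 difference was not tested.

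**Figure D2:**
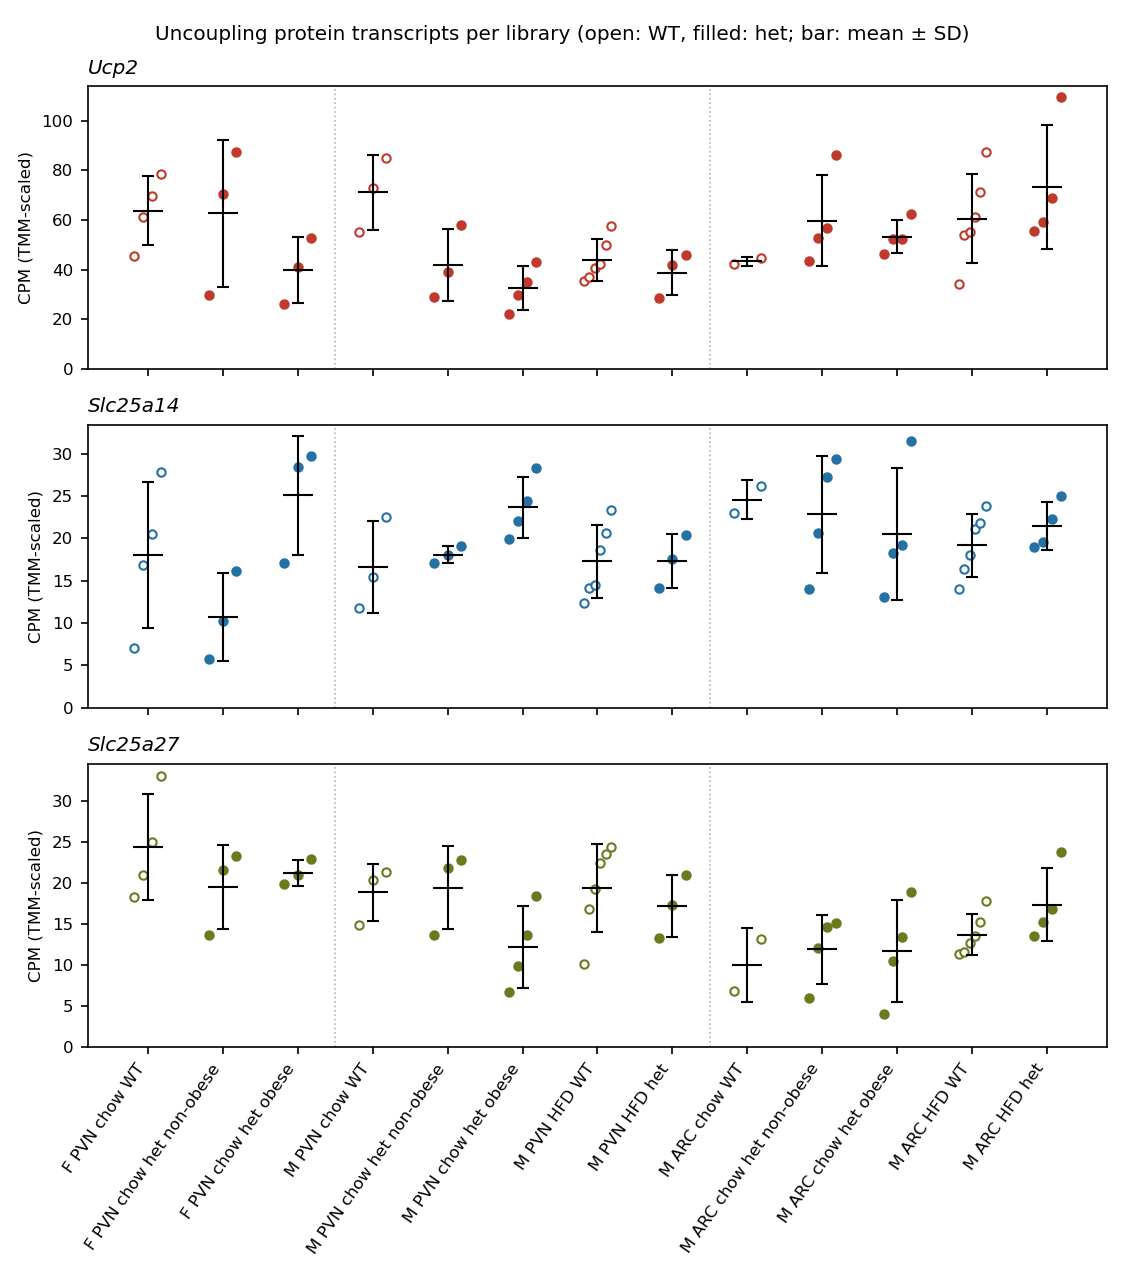
Level of Ucp2, Slc25a14 and Slc25a27 in each library (vertical axis, CPM scaled by TMM), by sex, nucleus, diet, genotype and weight class along the horizontal axis. Open points are wild type, filled points het, and bars the mean and SD. The 4 obese het male PVN libraries hold 22.1 to 43.2 CPM of Ucp2, below the 55.3 to 85.0 CPM of the wild-type ones, and in male ARC the wild-type chow libraries hold 42.1 and 44.7 CPM.

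In female PVN on chow, Ucp2 was 69.5, 61.3, 45.7 and 78.4 CPM in wild type, 40.9, 26.1 and 52.8 CPM in obese hets and 70.6, 29.9 and 87.5 CPM in non-obese hets. Obese hets tended to the lower end but overlapped wild type, and non-obese hets spanned the whole range. The edgeR differences were -0.69 (SE 0.39, unadjusted p = 0.0943, adjusted p = 1.00) for obese hets and -0.04 (SE 0.38) for non-obese hets against wild type, and -0.64 (SE 0.41) between the weight classes. None of the 3 members was called by edgeR or DESeq2 in these 3 comparisons, nor had an unadjusted edgeR p under 0.05, while 0.0129%, 0.00646% and 0% of genes were called by edgeR and 0.849%, 1.17% and 0.318% by DESeq2, and 3.18%, 4% and 3.06% were at an unadjusted p under 0.05. The obese het effect in female minus that in male PVN was 0.46 (95% interval -0.57 to 1.49, edgeR unadjusted p = 0.366), so a difference between the sexes was not detectable, with 0 of 3 members called by either tool, and 0% of genes called by edgeR and 0.983% by DESeq2, and 0 members and 5.48% of genes at an unadjusted p under 0.05. Without library 15 it was 0.29.

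In male ARC on chow the order was the other way round. Ucp2 was 44.7 and 42.1 CPM in the 2 wild-type libraries, 62.2, 52.3, 52.2 and 46.2 CPM in obese hets and 52.6, 56.8, 86.0 and 43.4 CPM in non-obese hets. All 4 obese het and 3 of 4 non-obese het libraries lay above both wild-type libraries. The differences did not exceed the spread, at 0.27 for obese hets (SE 0.26, edgeR unadjusted p = 0.313) and 0.43 for non-obese hets (SE 0.26, edgeR unadjusted p = 0.114), and -0.16 (SE 0.21) between obese and non-obese hets. Of the 3 members 0 were called by edgeR or DESeq2 and 0 had an unadjusted edgeR p under 0.05, against 0.0205%, 0.0136% and 0.00682% of genes called by edgeR and 0.00662%, 0.00331% and 0.00331% by DESeq2, and 2.59%, 1.9% and 4.25% at an unadjusted p under 0.05. Without the ARC libraries 39 and 43 the non-obese het difference was 0.63 (edgeR unadjusted p = 0.0225, adjusted p = 1.00), that of obese hets 0.27 and that between het classes -0.36. Gfap, 1 of 7 astrocyte markers, was called higher in obese hets at 2.84 (SE 0.46, edgeR adjusted p = 0.0149). It was the 1 gene of the cell type lists called there. The summed level of the 7 astrocyte markers overlapped, at 1910 to 2294 CPM in wild type and 1810 to 2107 CPM in obese hets. The part of these markers in the Ucp2 values was not tested.

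The obese het effects of both nuclei were compared in 1 fit. That fit treated PVN and ARC libraries as independent, although some share genotype, diet and weight and may come from 1 mouse. A block for weight-matched mice was not fitted for this difference. The obese het difference in Ucp2 in PVN minus that in ARC was -1.43 (SE 0.41, 95% interval -2.24 to -0.62, edgeR unadjusted p = 8.39e-04), which did not pass adjustment over 21400 genes (adjusted p = 0.653). For Slc25a14 the same difference was 0.77 (SE 0.45) and for Slc25a27 it was -0.85 (SE 0.59). No member was called by edgeR or DESeq2, 1 (Ucp2) had an unadjusted p under 0.05, as had 6.96% of all genes, and 0% of genes were called by edgeR and 0.00242% by DESeq2. When every gene with a total count over 1 was tested the Ucp2 difference was -1.42 with an edgeR adjusted p of 0.190, and without library 15 it was -1.25 (edgeR unadjusted p = 0.00430, adjusted p = 0.640). Without library 15 the differences of Slc25a14 and Slc25a27 were 1.09 (edgeR unadjusted p = 0.0262, adjusted p = 0.669) and -0.72, and without libraries 39 and 43 the 3 were -1.42, 0.78 and -0.84. The 5 ARC neuron markers tested had a median of -3.45 in this contrast, each at an unadjusted p under 0.05, against -0.05 over all genes, and their part was not tested.

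In PVN of wild-type males, Ucp2 on high-fat diet was compared with Ucp2 on chow, and the result lay at the threshold. The 6 HFD wild-type PVN libraries held from 35.3 to 57.5 CPM (median 41.5), and 2 of the 3 chow libraries lay above all of them. The difference was -0.68 (SE 0.23, 95% interval -1.16 to -0.20), with an edgeR unadjusted p of 0.00684 and an adjusted p of 0.294. DESeq2 gave -0.74 with an adjusted p of 0.201. Of the 3 members 0 were called by edgeR and 1 by DESeq2, and 1 had an unadjusted edgeR p under 0.05, against 1.43% of genes called by edgeR, 3.05% by DESeq2 and 10.3% at an unadjusted p under 0.05. Without library 15 the difference was -0.48 (edgeR unadjusted p = 0.0770, adjusted p = 0.433), and without libraries 15 and 24 it was -0.44 (edgeR adjusted p = 0.485). Pomc, the ARC neuropeptide present in library 15, was called lower on HFD at -4.18 and Rbfox3, a neuronal marker, at -0.93, and their part was not tested.

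In ARC of wild-type males the difference between diets had the opposite sign and was not past the threshold. Ucp2 ran from 34.2 to 87.2 CPM (median 58.1) in the 6 HFD libraries, a range that held both chow values. The difference was 0.46 (SE 0.28, edgeR unadjusted p = 0.108, adjusted p = 0.697), and 0 of 3 members were called by edgeR or had an unadjusted edgeR p under 0.05, against 1.16% and 8.54% of genes. DESeq2 called 6.49% of the genes to which it gave an adjusted p, not Ucp2 among them (adjusted p = 0.510), and gave none for Slc25a14 and Slc25a27. The wild-type chow libraries enter both the diet and the genotype comparisons of a nucleus, so these results are not independent.

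On HFD the genotypes overlapped in both nuclei. Ucp2 in PVN was 41.9, 28.4 and 46.0 CPM in hets, a difference of -0.21 from wild type (SE 0.24, 95% interval -0.70 to 0.28, edgeR unadjusted p = 0.391). In ARC it was 110, 55.4, 68.6 and 59.3 CPM in hets, a difference of 0.27 (SE 0.21, 95% interval -0.17 to 0.70, edgeR unadjusted p = 0.217). The het ARC library 50 had the highest Ucp2 of the 49 libraries. No member was called by edgeR or DESeq2 or had an unadjusted edgeR p under 0.05 in either nucleus, against 0.00569% of genes called by edgeR in PVN and 0.0127% in ARC, and 0.00261% and 0.00284% by DESeq2, and 0.99% and 4.54% at an unadjusted p under 0.05. Without libraries 15 and 24 the PVN difference was -0.25.

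**Figure D3:**
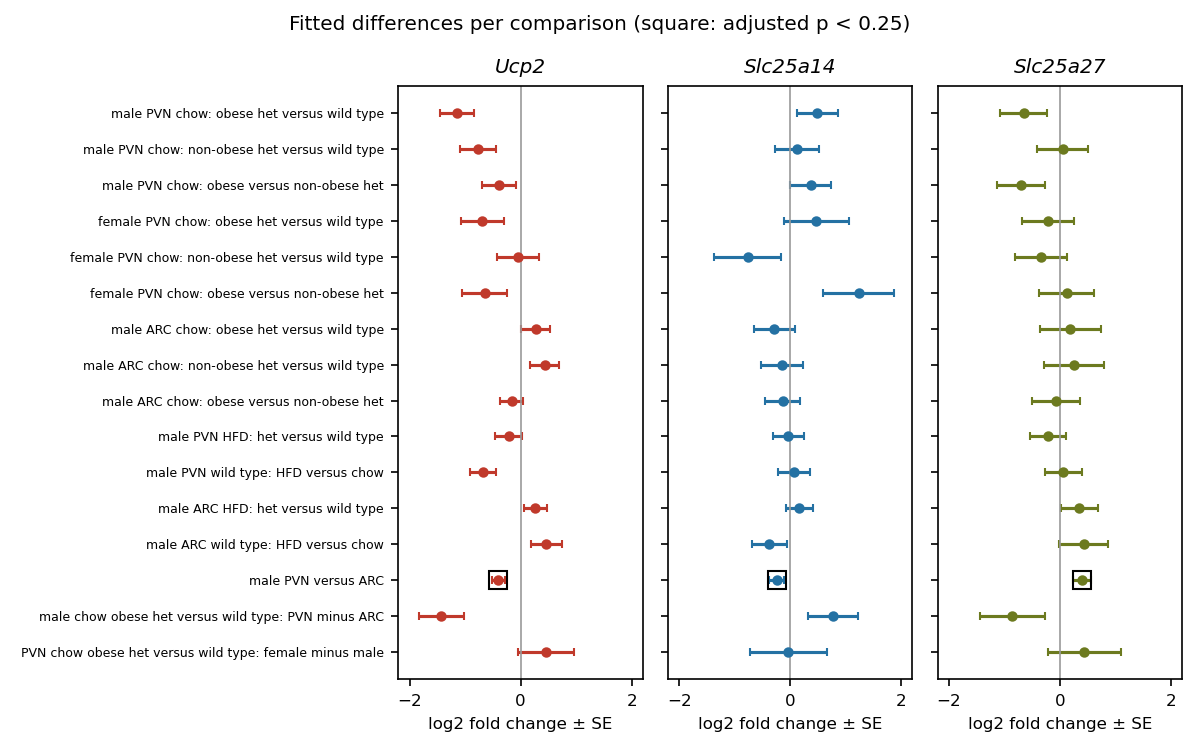
Fitted log2 differences with their standard errors (horizontal axis) for the 3 uncoupling proteins in each of 16 comparisons (rows). Squares mark an edgeR adjusted p under 0.25, which occurs only for male PVN versus ARC, where Ucp2 is at -0.40, Slc25a14 at -0.25 and Slc25a27 at 0.40.

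Between the nuclei, averaged over the 5 genotype and diet groups of males, Ucp2 was lower and Slc25a27 higher in PVN than in ARC. Ucp2 differed by -0.40 (SE 0.12, edgeR adjusted p = 0.0110), Slc25a14 by -0.25 (SE 0.13, edgeR adjusted p = 0.216) and Slc25a27 by 0.40 (SE 0.17, edgeR adjusted p = 0.0976). All 3 members were called, by edgeR and by DESeq2, but so were 34.4% and 40.1% of genes, 2 of 3 members and 28.7% of genes had an unadjusted edgeR p under 0.05, and the median over all genes was 0.13 on the same scale. Relative to that median Ucp2 and Slc25a14 lay below and Slc25a27 above. The call for Slc25a14 was lost in 14 of the 39 fits that left out 1 library and with the weight-matched mouse as a block (-0.09, edgeR adjusted p = 0.728), and that for Slc25a27 was lost without ARC library 34 (0.33, edgeR adjusted p = 0.312). The call for Ucp2 held in all 39, between -0.47 and -0.35. The differences of Ucp2, Slc25a14 and Slc25a27 were -0.42, -0.28 and 0.39 without libraries 15 and 24 and -0.44, -0.26 and 0.39 without libraries 39 and 43, all of them called by edgeR.

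In 15 cases exactly 1 PVN and 1 ARC library shared genotype, diet and body weight, and may come from 1 mouse. Ucp2 was lower in PVN than in ARC in 12 of the 15, by a mean of -0.46 ± 0.56 log2 units (SD). The 3 exceptions were both wild-type chow pairs, at 72.9 against 44.7 CPM and 55.3 against 42.1 CPM, and 1 non-obese het chow pair, at 57.8 against 52.6 CPM. Slc25a27 was higher in PVN in 11 of 15 pairs (mean 0.46 ± 0.62), and Slc25a14 was lower in PVN in 7 of 15 (mean -0.07 ± 0.58).

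**Figure D4:**
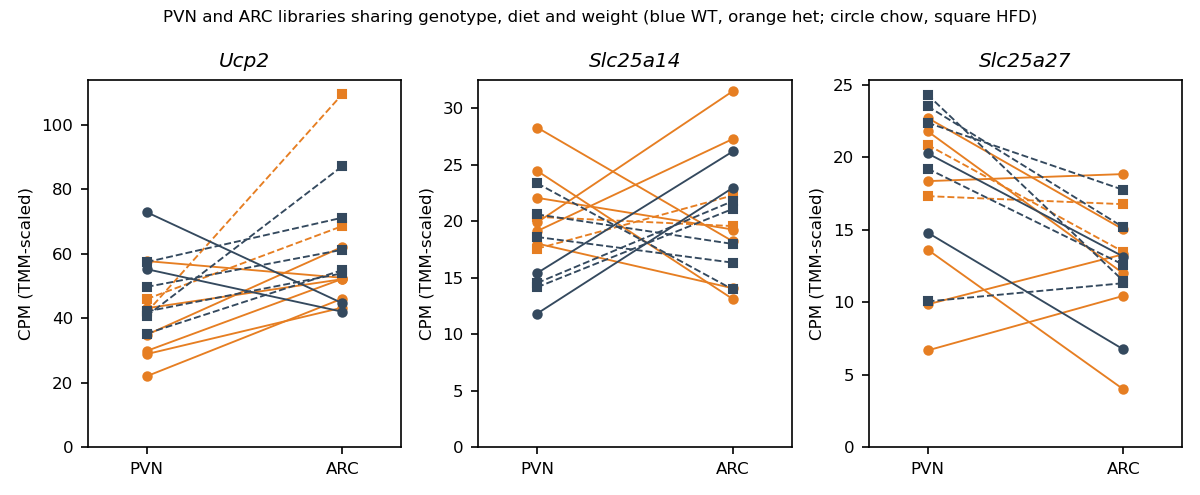
CPM in PVN and ARC libraries of the same genotype, diet and weight, joined by a line, for each uncoupling protein (15 pairs). Blue marks wild type, orange het, circles chow and squares HFD. Ucp2 rises from PVN to ARC in 12 pairs and falls in both wild-type chow pairs, and Slc25a27 falls in 11 pairs.

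Slc25a14 and Slc25a27 differed from Ucp2 in which groups were high. Slc25a14 in male PVN on chow was 11.8, 15.4 and 22.5 CPM in wild type, 19.1, 17.1 and 18.0 CPM in non-obese hets and 28.3, 24.5, 19.9 and 22.1 CPM in obese hets. The obese hets lay towards the upper end but overlapped library 15, with a difference of 0.49 from wild type (SE 0.37, 95% interval -0.28 to 1.25). Without library 15 that difference was 0.80 (edgeR unadjusted p = 0.0802, adjusted p = 1.00), and that of non-obese hets went from 0.12 to 0.43. Without library 15, the exact permutation test of 7 hets against the other 2 wild-type libraries gave 0.63 with p = 0.0278 (adjusted p = 0.417), the smallest p that 36 splits allow. In female PVN it was 20.6, 7.04, 16.9 and 27.8 CPM in wild type, 17.0, 28.5 and 29.7 CPM in obese hets and 16.1, 5.74 and 10.2 CPM in non-obese hets. The female weight classes did not overlap, and their difference was the largest of this gene, at 1.23 (SE 0.64, 95% interval -0.12 to 2.58), with an edgeR unadjusted p of 0.0705 and an adjusted p of 1.00. Both lowest female values, 7.04 and 5.74 CPM, came from the female libraries with the fewest counts. In male ARC Slc25a14 ran from 13.1 to 31.5 CPM with overlap of all groups.

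Slc25a27 in male PVN on chow was 20.3, 14.8 and 21.3 CPM in wild type, 21.8, 13.6 and 22.7 CPM in non-obese hets and 13.6, 6.69, 18.4 and 9.87 CPM in obese hets. Obese hets lay towards the lower end and overlapped both other groups, at -0.65 from wild type (SE 0.43, edgeR unadjusted p = 0.141) and -0.70 from non-obese hets (SE 0.43, edgeR unadjusted p = 0.115). Without library 15 the difference from wild type was -0.52 (edgeR unadjusted p = 0.311). Female PVN held 13.6 to 33.1 CPM and male ARC 4.01 to 23.7 CPM, and no genotype or diet comparison in them had an edgeR unadjusted p under 0.05. On HFD the het difference was -0.21 (SE 0.32) in PVN and 0.35 (SE 0.33) in ARC.

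Body weight was compared with the members within chow-fed het males. Over 7 PVN libraries Slc25a27 had a negative relation with weight (Pearson's r = -0.80, exact permutation p = 0.0325, Spearman's rho = -0.75, exact permutation p = 0.0663), but not after adjustment over 6 relations (adjusted p = 0.195 and 0.398). Without the 2 libraries farthest from the median weight r was -0.42 (n = 5, exact permutation p = 0.467). That cut also narrows the range of weight, so it cannot show whether the relation rested on those libraries. For Ucp2 in PVN r was -0.22 (exact permutation p = 0.652, rho = -0.11 with p = 0.840) and for Slc25a14 it was 0.63 (exact permutation p = 0.133, rho = 0.64 with p = 0.139), with adjusted p-values of 0.973 and 0.398. In 8 ARC libraries r lay between -0.08 and -0.01 for the 3 members (exact permutation p from 0.854 to 0.973, adjusted p = 0.973, rho from -0.10 to -0.05 with p from 0.825 to 0.916). Some of these values changed when libraries were left out. Without the 2 farthest in weight r for Ucp2 was -0.61 in PVN (n = 5, exact permutation p = 0.283) and -0.50 in ARC (n = 6, exact permutation p = 0.336). Without libraries 39 and 43 r in ARC was -0.53 for Ucp2, -0.52 for Slc25a14 and -0.01 for Slc25a27 (n = 6, exact permutation p from 0.279 to 0.986).

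Microglial transcripts were set beside Ucp2 because microglia express it. In male PVN on chow the summed level of 18 microglial markers ran from 219 to 283 CPM in wild type, from 177 to 244 CPM in non-obese hets and from 152 to 267 CPM in obese hets, overlapping in all 3 groups. Csf1r, the receptor on which microglia depend for survival, was 29.6 to 44.5 CPM in wild type and 20.3 to 45.2 CPM in obese hets. In the obese het comparison 0 of 18 markers were called, where edgeR called 0.0256% of all genes. Of the 18, 5 were above 0, and the median difference was -0.23 against -0.01 over all genes. In male ARC on chow the sum was 225 to 273 CPM in wild type, with only 2 libraries, and 295 to 319 CPM in obese hets. Non-obese hets there held 229 to 350 CPM. Csf1r overlapped, at 31.2 to 32.1 CPM in wild type and 31.8 to 52.7 CPM in obese hets. In male ARC on HFD the sum overlapped, at 251 to 352 CPM in wild type and 344 to 389 CPM in hets. Csf1r there was 29.7 to 38.2 CPM in wild type and 38.4 to 47.4 CPM in hets. How many of all genes separated as this Csf1r level or the chow sum did was not counted. Between nuclei, 8 of 18 were called lower in PVN and 0 higher, where edgeR called 34.4% of all genes in either direction. Their median was -0.32 against 0.13 over all genes. Among them were the complement genes C1qa at -0.69 (SE 0.16, edgeR adjusted p = 0.00147) and C1qc at -0.79 (SE 0.20, edgeR adjusted p = 0.00391). Csf1r was also called, at -0.24 (SE 0.12, edgeR adjusted p = 0.158). Astrocyte markers were also lower in PVN (6 of 7 called), as were oligodendrocyte markers (5 of 5), while endothelial markers were higher (5 of 5). The same 34.4% of all genes stands beside these counts. The part of these cell types in the Ucp2, Slc25a14 and Slc25a27 differences was not tested. In bulk tissue, fewer cells of a type and less RNA per cell cannot be told apart.

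Within groups, after subtraction of each group's mean, the relation of Ucp2 with Csf1r did not reach an adjusted p of 0.05 in any table. Pearson's r was 0.18 in female PVN (n = 10, permutation p = 0.616), -0.32 in male PVN (n = 19, permutation p = 0.182) and 0.39 in male ARC (n = 20, permutation p = 0.0876), with adjusted p-values of 0.759, 0.413 and 0.359 over 18 relations and rho of 0.18, -0.35 and 0.47 (permutation p = 0.632, 0.146 and 0.0389, adjusted p = 0.875, 0.524 and 0.233). Without the 2 libraries farthest from the median r was 0.62, -0.38 and 0.53 in the same order. It was -0.33 in male PVN without libraries 15 and 24 and 0.42 in male ARC without libraries 39 and 43. Without TMM scaling r in male ARC was 0.67 (permutation adjusted p = 0.00729) and in male PVN it was 0.02, so the value depended on the scaling.

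With the mean log2 CPM of the 18 markers, the relation of Ucp2 reached that threshold in female PVN, at r = 0.91 (n = 10, permutation p = 1.30e-04, adjusted p = 0.00234, rho = 0.88, permutation p = 0.00178, adjusted p = 0.0320), and not in male PVN and male ARC, at r = -0.12 and 0.23 (permutation p = 0.633 and 0.318, adjusted p = 0.759 and 0.521, rho = -0.13 and -0.01, permutation p = 0.605 and 0.972). Without the 2 farthest libraries the female r was 0.82 (permutation p = 0.00753, adjusted p = 0.136). The sign turned when the list was summed before taking logs, with r = -0.51 in female PVN (permutation p = 0.136) and 0.63 in male ARC (permutation p = 0.00370, adjusted p = 0.0333). Depth moved with the female values, since Ucp2 and log2 total count gave r = 0.70 (permutation p = 0.0277, adjusted p = 0.129), and up to 7 of the 18 markers were at 0 in a female library. The part of depth was not tested.

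**Figure D5:**
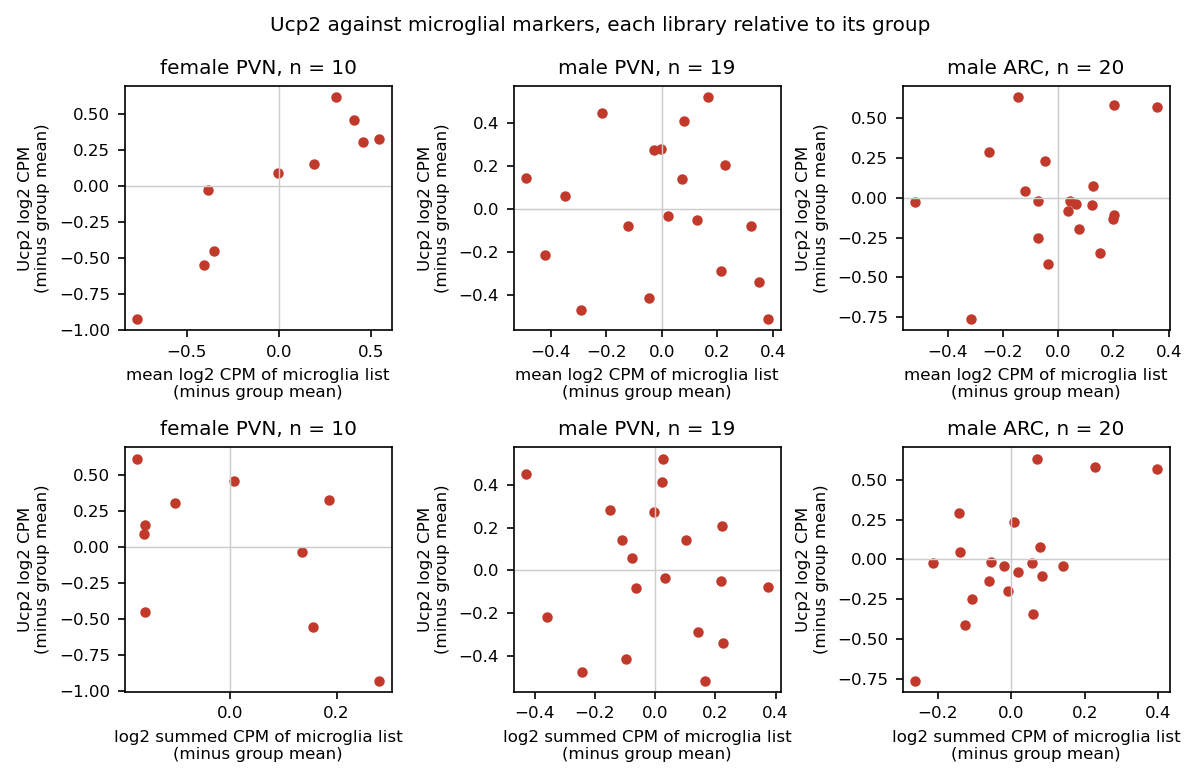
Ucp2 log2 CPM of each library minus its group mean (vertical axis) against the microglial markers, as the mean of their log2 CPM (upper row) or the log2 of their summed CPM (lower row), also minus the group mean. In female PVN r is 0.91 above and -0.51 below, and in male ARC it is 0.23 above and 0.63 below.

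Slc25a14 and Slc25a27 gave no relation with either marker measure at an adjusted p under 0.05. Slc25a14 with the marker mean in female PVN was highest, at r = 0.73 (permutation p = 0.0179, adjusted p = 0.161, rho = 0.76, permutation p = 0.0151, adjusted p = 0.136), and Slc25a14 also followed log2 total count there (r = 0.86, permutation p = 8.60e-04, adjusted p = 0.0155). With Csf1r in male ARC Slc25a14 gave r = -0.24 (permutation p = 0.296), which became -0.70 (permutation adjusted p = 0.0135) without the ARC libraries 39 and 43. Slc25a27 gave negative r with Csf1r in all 3 tables, from -0.40 to -0.31, with permutation adjusted p-values from 0.359 to 0.497.

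Related mitochondrial genes were described by counts. Of 12 other uncoupling and related mitochondrial carriers, 18 genes of fatty acid oxidation and its regulators and 12 antioxidant enzymes, 0 were called by edgeR in the 15 genotype, diet and interaction comparisons. In those comparisons edgeR called only 0% to 1.43% of all genes. In obese het against wild-type male PVN the medians of the 3 lists were -0.07, -0.02 and -0.14 against -0.01 over all genes, with 1 of 11, 0 of 17 and 0 of 12 tested genes at an unadjusted p under 0.05. Between nuclei the carriers held 1 called higher and 2 called lower of 12 tested in PVN, with a median of -0.06 against 0.13 over all genes. Slc25a1, the citrate carrier, was higher by 0.33 (SE 0.15, edgeR adjusted p = 0.136), and Slc25a11, the oxoglutarate carrier, differed by -0.31 (SE 0.12, edgeR adjusted p = 0.0651). Fatty acid oxidation held 4 called higher of 18 and 0 lower (median 0.02), led by Cpt2, the inner-membrane carnitine palmitoyltransferase, at 0.91 (SE 0.28, edgeR adjusted p = 0.0173). Cpt1a, the outer-membrane form that admits fatty acids to oxidation, was higher by 0.36 (SE 0.15, edgeR adjusted p = 0.102). Antioxidant defence held 2 called lower of 12 and 0 higher (median -0.10), namely Gpx4 at -0.34 (SE 0.15, edgeR adjusted p = 0.108) and Sod1 at -0.21 (SE 0.09, edgeR adjusted p = 0.118). Each of these shares was below the 34.4% of all genes called in that comparison.

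The members also differed in the genes whose pattern was most like theirs, by Pearson's r of group-centred log2 CPM over 49 libraries among 14057 other genes, given as a description without a test. For Ucp2 these were Nyap1 (0.71), Asic2 (0.66), Ccdc137 (0.66), Lman2 (0.64) and Krt90 (0.64). For Slc25a14 they were Tnfrsf21 (0.72), Epdr1 (0.71), Chrm1 (0.70), Blzf1 (0.70) and Spata5 (0.69), and for Slc25a27 Mdm2 (0.65), Prkaa2 (0.55), Dhx32 (0.55), Tk2 (0.55) and Atp11a (0.53). The likeness differed between tables, as Tnfrsf21 had r = 0.93 with Slc25a14 in female PVN and -0.10 in male ARC, and Prkaa2 had r = -0.30 with Slc25a27 in female PVN and 0.75 in male ARC. For Nyap1 and Ucp2 r was 0.88, 0.60 and 0.61 in female PVN, male PVN and male ARC. For Ucp2 the microglial markers ran from r = -0.17 (Tyrobp) to 0.52 (C1qa, 140th of 14057). C1qc was at 0.48, whereas C1qb was at -0.07, Fcrls at -0.14 and Ctss at -0.10. Csf1r had r = 0.04, near the median of 0.07 over all genes. The members were little alike among themselves, with r = 0.20 between Ucp2 and Slc25a14, -0.11 between Ucp2 and Slc25a27 and 0.10 between Slc25a14 and Slc25a27.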

How the data were processed

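RNA of laser-captured PVN and ARC was sequenced by the authors from SMARTer stranded pico-input libraries as single-end reads. Per the submitters' processing notes reads were aligned with STAR 2.5.0a to GRCm38, and the counting tool, annotation and strand setting are not given in the sources used here. The deposited values are raw read counts per gene in 3 tables, one per sex and nucleus, and all of their sample columns were matched to labels (0 left unmatched). Of 53379 Ensembl identifiers, 53274 were matched to GENCODE symbols.

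Libraries 5, 7 and 35, of very low depth, and library 32, labelled ARC but tabulated with PVN, were left out (4 in all). Libraries are named by the number in their labels, and nucleus, sex, diet, genotype and weight came from the labels. The obese and non-obese classes were assigned from the labelled weight with the limits given in the study's methods. Nothing says that each library came from its own mouse, replicates 39 and 40 share a weight, and 4 HFD libraries have weights that fall under opposite genotypes in the nuclei, so p-values measure the spread between libraries.

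Levels are CPM with TMM factors over the 49 libraries, on the log2 scale with a prior count of 2. Each comparison was fitted across all genes with edgeR 4.0.16 (R 4.3.3) quasi-likelihood tests after filterByExpr with a minimum count of 10, with Benjamini-Hochberg adjustment over all genes tested and calls at an adjusted p under 0.25, the threshold of the study. DESeq2 1.42.0 was an alternative, with shares taken over the genes to which it gave an adjusted p. The code was tested on simulated counts. Permutation results were read at an adjusted p of 0.05. Hets were compared with wild type by exact two-sided permutation of library labels, and correlations were tested by exact permutation or 100000 two-sided resamples. The members and gene lists were chosen with earlier results of these data known. Genes named are the members, Nnat as the check of the labels, microglial markers beside Ucp2, the 5 most alike genes per member, and called list genes with the smallest p. Alternatives were other size factors, no filter, a threshold of 0.05, all labelled libraries, the compared groups alone, each library left out, libraries of conflicting weight left out, replicates 39 and 40 summed, and a block for weight-matched mice. Leaving out libraries 15 and 24 or 39 and 43, summing the marker list and comparing with depth were chosen after seeing the data.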

Additional observations from a re-analysis of the deposited data

Results flagged for a closer look

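The obese het effect on Ucp2 in male PVN minus that in male ARC on chow was -1.43 on the log2 scale (SE 0.41). It is listed for its unadjusted p in the test of the difference itself (edgeR unadjusted p = 8.39e-04), which did not pass adjustment over 21400 genes (edgeR adjusted p = 0.653). Without library 15, which held little Sim1, it was -1.25 (edgeR unadjusted p = 0.00430). All 4 obese het PVN libraries were below the 3 wild-type ones, and all 4 obese het ARC libraries were above the 2 wild-type ones. How many of all genes separated in this way was not counted. The fit treated PVN and ARC libraries as independent, although some may come from 1 mouse. Nucleus and sequencing pool cannot be told apart. Dixon's test was run only on groups of 4 to 10 libraries, where it singled out no library for any of the 3 members. The wild-type chow groups of male PVN and male ARC, with 3 and 2 libraries, were too small for it, so it says nothing of library 15.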

How the results depend on the processing

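By replicate number, no paired analysis was possible because each number belongs to 1 library. PVN and ARC were paired by labelled genotype, diet and weight instead. With the weight-matched mouse as a block the nucleus difference of Slc25a14 was -0.091 (edgeR adjusted p = 0.728), and the calls of Ucp2 and Slc25a27 held.

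Ucp2 became called with DESeq2 in obese het male PVN (-1.13), and for HFD against chow in PVN with DESeq2 (-0.74), with RLE size factors (-0.74, edgeR adjusted p = 0.221), with every gene over a total of 1 (-0.67, edgeR adjusted p = 0.234), with only the groups compared (-0.70, edgeR adjusted p = 0.215) and without replicate 14 (edgeR adjusted p = 0.216). The PVN minus ARC difference of Ucp2 became called with every gene over a total of 1 (-1.42) and with all labelled libraries (-1.71, edgeR adjusted p = 0.233). At a threshold of 0.05 the nucleus calls of Slc25a14 (-0.25) and Slc25a27 (0.40) were lost. That of Slc25a14 was also lost with all labelled libraries (-0.17), every gene over a total of 1 (-0.24) and without 4 libraries of conflicting weight (-0.19), and that of Slc25a27 with all labelled libraries (0.31).

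With all labelled libraries, which adds shallow ones, signs turned for Ucp2 in female PVN (obese het 1.35, non-obese het 0.22, obese against non-obese 1.13), Slc25a27 there between weight classes (-0.25), Slc25a14 in ARC (obese het 0.11, non-obese het 0.26, HFD 0.0077) and Slc25a27 in ARC (obese het -0.41, non-obese het -0.36, HFD -0.071). Slc25a14 in HFD PVN turned to 5.01e-04 with only the groups compared, 0.00342 without the libraries of conflicting weight, and in the exact permutation to -0.0082 without TMM and -0.062 without PVN libraries 15 and 24. The cause was not tested.

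Correlations with the marker mean turned sign as Spearman's rho for Ucp2 in ARC (-0.0090) and Slc25a27 in female PVN (0.0061). Uncentred, Ucp2 in female PVN was 0.69 (adjusted p = 0.275, a permutation value) and signs turned for Ucp2 in male PVN (0.10), Slc25a14 with Csf1r in female (-0.016) and male PVN (-0.058) and with the marker mean in male PVN (-0.10). Without the 2 farthest libraries Ucp2 in female PVN was 0.82, and Slc25a14 turned with Csf1r in female PVN (-0.22) and with the mean in ARC (0.13). Without TMM, Ucp2 was 0.022 with Csf1r and 0.13 with the mean in male PVN, 0.67 and 0.58 in ARC, Slc25a14 was 0.81 with the mean in female PVN and 0.16 and 0.12 in ARC, and Slc25a27 was 0.25 with the mean in female PVN and 0.046 with Csf1r in ARC. Without libraries 15 and 24 Slc25a14 was -0.15 with the mean in male PVN, and without 39 and 43 it was -0.70 with Csf1r in ARC. With the summed list, female PVN gave -0.51 for Ucp2, -0.26 for Slc25a14 and 0.20 for Slc25a27. Slc25a27 with weight in ARC turned to 0.21 without the 2 farthest libraries.

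With each library left out in turn, Slc25a14 differences that changed sign or call ranged from -0.084 to 0.43 in male PVN chow non-obese het versus wild type, from -0.29 to 0.038 in male ARC chow non-obese het versus wild type, from -0.42 to 0.027 in male ARC chow obese versus non-obese het, from -0.17 to 0.083 in male PVN HFD het versus wild type, from -0.10 to 0.41 in male PVN wild type HFD versus chow, from -0.30 to -0.19 in male PVN versus ARC, from -0.34 to 0.25 in PVN chow obese het versus wild type female minus male, from -0.45 to 0.22 in female PVN chow het versus wild type (means of log2 CPM) and from -0.097 to 0.17 in male PVN HFD het versus wild type (means of log2 CPM). With each library left out in turn, Slc25a27 differences that changed sign or call ranged from -0.093 to 0.26 in male PVN chow non-obese het versus wild type, from -0.084 to 0.24 in female PVN chow obese versus non-obese het, from -0.22 to 0.76 in male ARC chow obese het versus wild type, from -0.16 to 0.82 in male ARC chow non-obese het versus wild type, from -0.40 to 0.22 in male ARC chow obese versus non-obese het, from -0.050 to 0.21 in male PVN wild type HFD versus chow, from 0.33 to 0.51 in male PVN versus ARC, from -0.32 to 0.028 in male PVN HFD het versus wild type (means of log2 CPM) and from -0.30 to 0.64 in male ARC chow het versus wild type (means of log2 CPM). With each library left out in turn, Ucp2 differences that changed sign or call ranged from -0.35 to 0.30 in female PVN chow non-obese het versus wild type, from -0.30 to 0.064 in male ARC chow obese versus non-obese het, from -0.80 to -0.48 in male PVN wild type HFD versus chow and from -0.32 to 0.025 in male PVN HFD het versus wild type (means of log2 CPM).

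Over the alternatives, and not counting single libraries left out, the obese het male PVN count of 4 ran from 2 to 43, the HFD against chow counts of 251 in PVN and 182 in ARC from 26 to 1134 and from 5 to 678, the nucleus count of 7355 from 3376 to 7966 and the PVN minus ARC count of 0 up to 110. The other counts, with their ranges, were 2 (1 to 18) in male PVN chow non-obese het versus wild type, 0 (0 to 6) in male PVN chow obese versus non-obese het, 2 (1 to 936) in female PVN chow obese het versus wild type, 1 (1 to 235) in female PVN chow non-obese het versus wild type, 0 (0 to 622) in female PVN chow obese versus non-obese het, 3 (2 to 25) in male ARC chow obese het versus wild type, 2 (1 to 10) in male ARC chow non-obese het versus wild type, 1 (0 to 14) in male ARC chow obese versus non-obese het, 1 (1 to 8) in male PVN HFD het versus wild type, 2 (1 to 64) in male ARC HFD het versus wild type and 0 (0 to 453) in PVN chow obese het versus wild type female minus male. Depth limits Slc25a27 most, with as few as 9 reads in a library.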

Other observations

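The libraries left out held the following levels without TMM scaling. The female PVN library 7, with 812815 counts, had 179 Ucp2 reads or 220 CPM and no read of Slc25a14 or Slc25a27. Library 32, labelled ARC and tabulated with PVN, had 49.8 CPM of Ucp2, 27.2 CPM of Slc25a14 and 25.9 CPM of Slc25a27. The wild-type ARC library 35 had 4 Ucp2 reads among 271324 counts, and library 5 had 0 among 2302.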
